A study of Mus musculus with 6 samples.

Results

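The primary cilium and cystic liver and kidney disease were followed through 43 genes in mouse biliary epithelial cells, which form the wall of the bile ducts. The genes were taken by symbol from a deposited table of 24404 genes, and all 43 were found. All 43 also passed the filter for testing, a mean of at least 10 normalised counts over the 6 libraries. They fall into 9 groups by role: 12 genes of the IFT-B complex, 6 of the IFT-A complex, 2 motor genes, 7 of the BBSome with its recruiting GTPase Arl6, the ciliary GTPase Arl13b, 8 transition zone genes, 4 genes for polycystins, fibrocystin and Bicc1, 2 for the inversin compartment, and Dcdc2a.

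RNA from intrahepatic bile ducts of adult C57BL/6 mice was sequenced, with 3 libraries from Klf5 LKO mice (Alfp-CreTg/+;Klf5flox/flox) and 3 from controls (Alfp-Cre+/+;Klf5flox/flox). Both groups carried the floxed Klf5 alleles and both had 1 week of injury with DDC, a porphyrinogenic compound that damages bile ducts, and no uninjured sample is analysed here. The Cre, under albumin and alpha-fetoprotein regulatory sequences, was present in the Klf5 LKO group alone, and effects of Cre and of the loss of Klf5 cannot be told apart. Such sequences are not confined to duct cells, and the cells in which Cre acted were not tested here. Nothing in the labels ties a library to its own animal, and the spread behind each p-value may therefore be in part technical.

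The primary cilium is a single non-motile extension of the cell surface, built on a basal body and supported by microtubules. Intraflagellar transport carries its parts, with IFT-B and kinesin-II moving towards the tip and IFT-A and dynein-2 moving back, while the transition zone at its base gates which proteins enter. On cholangiocytes the cilium reaches into the duct lumen and senses bile flow, osmolality and bile acids. Inherited defects of some of these genes cause ductal plate malformation, hepatic cysts and fibrosis together with cystic kidneys.

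Total reads per library lay between 11726934 and 24784167. Klf5 itself had a normalised count of 977, 1192 and 1183 in the 3 Klf5 LKO libraries, against 2056, 2018 and 2316 in the controls (log2 fold change -0.93, SE 0.14, limma adjusted p = 0.0103). A single value covers the gene, and exons that the deletion spares may contribute to it. A normalised count is a read count divided by a size factor for its library, and lists of values follow the order of libraries 1, 2 and 3, with Klf5 LKO before control where the groups are not named. Of 14 biliary markers all were measured, and they summed to 428751 to 490966 in Klf5 LKO, against 490383 to 611308 in control. Of these 14, 10 had negative and 4 positive log2 fold changes, from -1.82 to 1.07 (median -0.26). At an unadjusted limma p under 0.05 there were 7 (50%), beside 10.9% of all genes tested. Limma called 1 higher (Sctr, 0.78) and 2 lower (among them Tspan8, -0.73), beside 0.652% of all genes called in either direction. DESeq2 called 6 (42.9%), beside 2.48% of all genes. Markers of other cells were low beside them. The 10 hepatocyte markers summed to 13032 to 16921 against 11471 to 14540.2, and the 12 leukocyte markers to 9099 to 20593 against 5720.2 to 27232. The 8 endothelial markers summed to 270.3 to 452 against 339 to 708, and the 5 mesothelial markers to 1825 to 2045 against 2833 to 3019. The 9 stellate cell and fibroblast markers summed to 9189.7 to 11474 against 6909 to 6975, nearly all of it Rgs5, while Col1a2, Col3a1, Lrat and Des were at 0 reads in every library. Transcripts of dividing cells separated the groups: 12 G2/M genes summed to 4984, 5298 and 4451 in Klf5 LKO, against 8935, 12565 and 8069 in control. The sums of the stellate cell, mesothelial and G2/M lists did not overlap between the groups. The part of these lists and of the biliary markers in the differences that follow was not tested.

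Dcdc2a was higher in Klf5 LKO, the only 1 of the 43 members that passed, beside 0.652% of the 13490 genes tested that limma called in either direction and 0.163% called higher. Dcdc2a (doublecortin domain-containing 2a) codes for a microtubule-binding protein of the cilium whose human counterpart is mutated in neonatal sclerosing cholangitis. It lies at chromosome 13, 25056004 to 25210706, plus strand (mm10, GRCm38), and none of its exons overlaps an exon of another protein-coding gene in GENCODE M21. Its normalised count was 8229, 9793 and 9048 in Klf5 LKO, against 5541, 6259 and 5865 in control. Every Klf5 LKO library lay above every control library, with group means of 9023 ± 782 and 5889 ± 359 (SD, n = 3 each). The log2 fold change was 0.61 (SE 0.12, 95% confidence interval 0.36 to 0.87, limma adjusted p = 0.0382), or 1.53-fold. In the authors' deposited table it had a log2 fold change of 0.57 (SE 0.11) with an adjusted p of 4.48e-05, and was also the only 1 of the 43 under 0.05 there.

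The call of Dcdc2a held with DESeq2 (adjusted p = 4.24e-05) and limma-voom (0.0413) and fell just short with the edgeR quasi-likelihood test (0.0550). It also held without Klf5 LKO 1 (limma adjusted p = 0.0216) but ended without Klf5 LKO 2 (0.0997), Klf5 LKO 3 (0.121), control 1 (0.228), control 2 (0.146) or control 3 (0.127), while its log2 fold change stayed between 0.55 and 0.68. With a term for leukocyte transcripts the log2 fold change was 0.58 (SE 0.13, limma adjusted p = 0.104). With a term for the G2/M genes it was 0.97 (SE 0.33). In that fit limma called 0 of 13490 genes, 397 of them at an unadjusted p under 0.05, and the mean log2 level of the G2/M genes was 8.08 to 8.42 in Klf5 LKO and 9.14 to 9.76 in control. In such bulk samples, a change in the share of a cell type and a change in RNA per cell cannot be told apart.

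The 250 bases before the start site of Dcdc2a, the member that was called, are shown from RefSeq. They lie at chr13:25055754-25056003, plus strand (GRCm38.p6), and are printed 5′ to 3′. Capitals mark the only match to CACCC or GGGCGG, the letters of boxes that Krüppel-like and Sp factors bind.
Dcdc2a: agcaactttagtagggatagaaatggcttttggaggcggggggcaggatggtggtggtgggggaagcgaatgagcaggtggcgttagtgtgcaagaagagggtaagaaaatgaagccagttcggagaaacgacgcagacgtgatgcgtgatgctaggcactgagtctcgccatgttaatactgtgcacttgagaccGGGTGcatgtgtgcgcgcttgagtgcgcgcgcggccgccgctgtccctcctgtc
The match was to CACCC, read on the other strand (GGGTG), and gives letters, not a site. The motifs were searched on both strands in 300 bases, 250 before and 50 after each start site, and matches of the 2 may overlap. CACCC was found in 26 of 41 windows of the members (63.4%) and in 57.5% of all 32851 windows. GGGCGG was found in 22 of 41 (53.7%), against 35.7% of all windows. RefSeq windows were matched for 37 of the 43 members, and Ift80, Ift81, Ift122, Tmem67, Bicc1 and Anks6 were not matched.

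Of the other 42 members none was called by limma. DESeq2, which called 2.48% of all genes, and limma-voom called no member but Dcdc2a, and edgeR, which called 0.623%, called none. At an unadjusted p under 0.05 there were 5 of 43 members (11.6%), Dcdc2a, Pkhd1, Ift43 and Ttc21b with positive log2 fold changes and Ift140 with a negative one, beside 10.9% of all genes tested. The groups did not overlap in 5 of 43 members (11.6%), beside 15.6% of all genes. These were Dcdc2a, Pkhd1, Bbs4 and Ift46, higher in Klf5 LKO (7.72% of all genes), and Ift22, lower (7.88% of all genes). The first share was close to that of the whole table and the second was below it. The median log2 fold change of the members was 0.09, beside -0.01 over all genes tested, and 27 of 43 (62.8%) had a positive log2 fold change, beside 49.2%. Leaving out Klf5 LKO 1 gave a median of 0.02 and leaving out Klf5 LKO 3 one of 0.15, and it lay between 0.07 and 0.10 without each other library.

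The limma intervals give a range of change for each uncalled member. Each is for 1 gene alone, without the added terms, and rests on a spread between libraries that may be in part technical. For 40 of 43 members (93.0%) the 95% confidence interval lay inside a 2-fold change in either direction, beside 69.3% of all genes tested, and for 18 of 43 (41.9%) it lay inside a 1.5-fold change, beside 38.2%. The 3 members whose interval went past 2-fold were Nphp4, Ift80 and Ift81. The median standard error was 0.21 for the members and 0.21 for all genes tested.

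**Figure D1:**
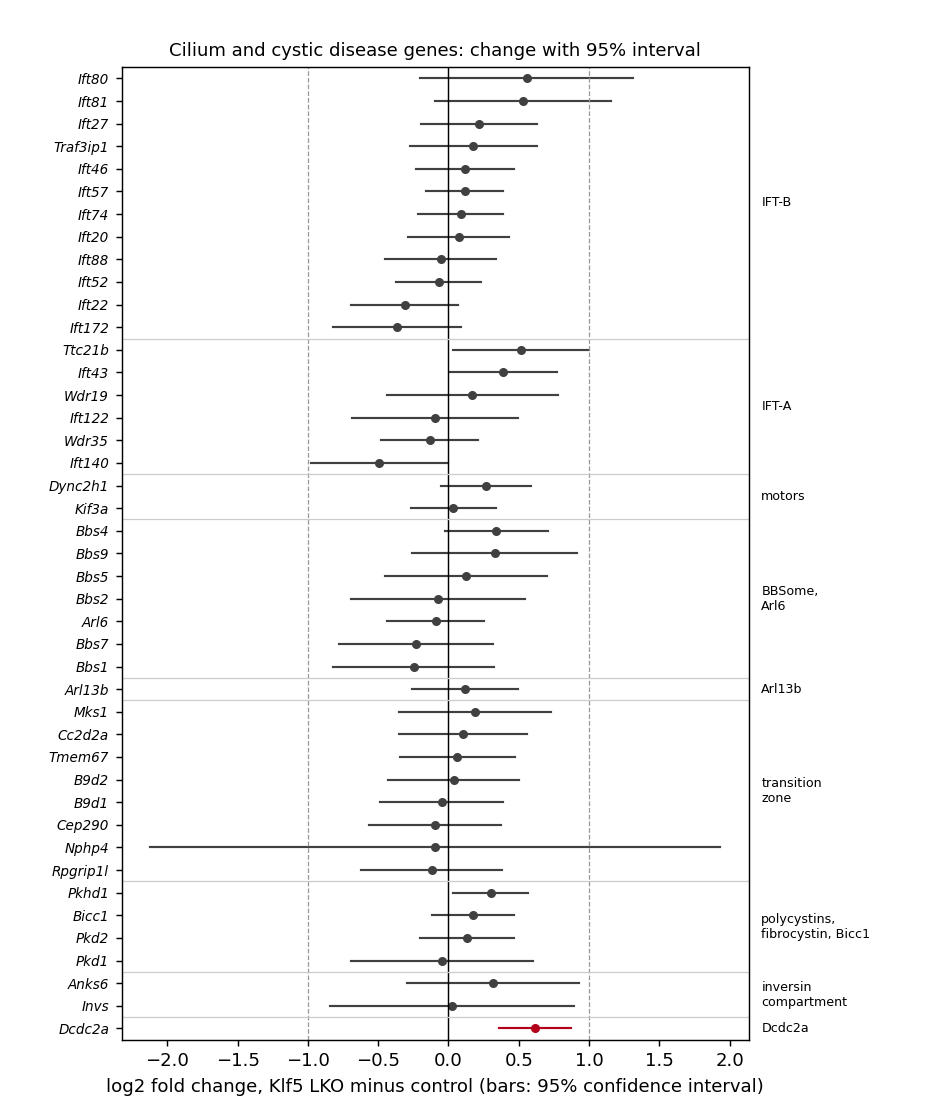
Log2 fold change of each of the 43 genes (x axis, Klf5 LKO minus control) with its 95% confidence interval, by role, and dashed lines at a 2-fold change. Dcdc2a, in red, is the only gene called by limma (0.61, 0.36 to 0.87), and the interval of Nphp4, -2.12 to 1.93, is the widest.

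The polycystin, fibrocystin and Bicc1 genes had no call by limma, DESeq2, edgeR or limma-voom. Pkhd1 codes for fibrocystin, the large membrane protein mutated in recessive polycystic kidney disease with congenital hepatic fibrosis. Its normalised count was 5631, 5801 and 5277 in Klf5 LKO, against 4287, 5146 and 4194 in control, so that the lowest Klf5 LKO library lay just above the highest control library. The log2 fold change was 0.30 (SE 0.12, interval 0.03 to 0.57, limma adjusted p = 0.396) and did not pass. Pkd2, the polycystin-2 cation channel, had 4680.0, 4082 and 3219 in Klf5 LKO, against 3166, 3766 and 3939 in control. The Pkd2 groups overlapped, and its log2 fold change was 0.13 (SE 0.15, limma adjusted p = 0.820).

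Pkd1, the receptor-like polycystin-1 that pairs with polycystin-2, was lower and more scattered. It had 991, 837 and 487 in Klf5 LKO, against 513, 781 and 1108 in control, and the groups overlapped over most of their range (log2 fold change -0.05, SE 0.30, limma adjusted p = 0.974). Its exons overlap those of Tsc2 on the opposite strand over 3.98% of its exon length. Such overlaps with a protein-coding gene, all on the opposite strand, also touch Cep290 (7.58%), Tmem67 (3.73%), Bbs4 (3.21%) and Invs (1.98%), and reads there could count for either gene. Bicc1, an RNA-binding protein whose loss gives cystic kidneys in mice, had 9072, 11780.3 and 10594 in Klf5 LKO, against 8292, 10224 and 9255 in control. These groups overlapped (log2 fold change 0.18, interval -0.12 to 0.47, limma adjusted p = 0.690).

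**Figure D2:**
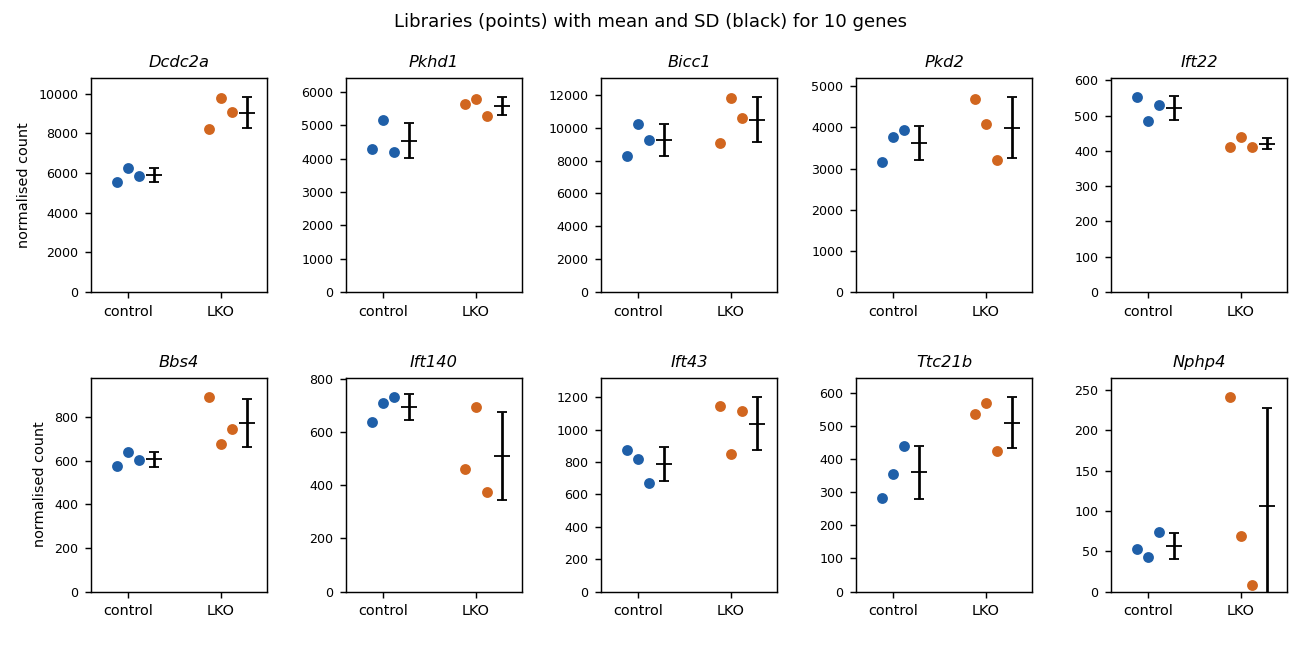
Normalised counts (y axis, from 0) of 10 genes in the 3 control and 3 Klf5 LKO libraries (points), with mean and SD in black; the lower end of the Klf5 LKO bar of Nphp4 lies below 0 and is not drawn. The groups are separate for Dcdc2a, Pkhd1, Ift22 and Bbs4, and Nphp4 runs from 7.45 to 242 within Klf5 LKO.

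No gene of the IFT-B complex, the anterograde train, was called by limma, and none of its 12 members had an unadjusted p under 0.05. DESeq2, edgeR and limma-voom called none either. Their log2 fold changes ran from -0.36 to 0.56 with a median of 0.10, and their summed level was 9439.7, 8643 and 8493 in Klf5 LKO, against 8612, 8498 and 8117 in control. Ift88, a core subunit whose hypomorphic mouse mutant develops cystic kidneys and bile duct lesions, had 531, 657 and 480.2 in Klf5 LKO, against 531, 596 and 594 in control. Its interval in the main fit, -0.45 to 0.34 on the log2 scale, did not reach the 0.61 seen for Dcdc2a. With the G2/M term its log2 fold change was 0.32 (SE 0.53).

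Ift22, a small GTPase-like subunit, was the member with separate groups on the low side, with 412, 438 and 409.9 in Klf5 LKO, against 552, 485 and 530.4 in control (log2 fold change -0.31, interval -0.70 to 0.07, limma adjusted p = 0.573). Ift172, a peripheral IFT-B subunit needed for the turn at the tip, had 382, 500.1 and 547 against 728, 615 and 499, which overlapped (log2 fold change -0.36, limma adjusted p = 0.576). In other subunits a single library stood high. Ift81, a tubulin-binding subunit, had 1003, 577 and 406 in Klf5 LKO, against 485, 452 and 356 in control, and Ift80 had 464, 234 and 247 against 181, 321 and 144. Their log2 fold changes of 0.53 (limma adjusted p = 0.554) and 0.56 (0.615) became 0.18 and 0.24 without Klf5 LKO 1, which held the highest value of both. Ift46 was separate between the groups by a narrow gap, with 669, 660.3 and 706 against 645, 659 and 575 (log2 fold change 0.12, limma adjusted p = 0.847). The other 6 subunits, Ift20, Ift27, Ift52, Ift57, Ift74 and Traf3ip1, had log2 fold changes from -0.07 to 0.22 with groups that overlapped.

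The 6 genes of the IFT-A complex, which returns cargo to the cell body, differed in both directions and none was called by limma, DESeq2, edgeR or limma-voom. At an unadjusted limma p under 0.05 there were 3 of 6, beside 10.9% of all genes tested. Ttc21b, a subunit mutated in nephronophthisis, had 537, 571 and 424 in Klf5 LKO, against 283, 356 and 441 in control (log2 fold change 0.52, SE 0.22, limma adjusted p = 0.425). Ift43, the smallest subunit, had 1146, 846 and 1115 against 875, 817 and 672 (log2 fold change 0.39, limma adjusted p = 0.445). Ift140, a core subunit, was on the other side with 461, 697 and 375 against 640.0, 713 and 734 (log2 fold change -0.49, limma adjusted p = 0.452). That log2 fold change, the most negative of the 43, had an SE of 0.22. With the G2/M term it was 0.086 with a wider SE of 0.64. In each of these 3 genes 1 library of a group lay inside the range of the other, so the groups overlapped. Wdr19 had 564, 595 and 283 in Klf5 LKO, against 491, 356 and 382 in control, with the lowest value in Klf5 LKO 3, and Wdr35 had 1201, 980.0 and 979.6 against 1259, 1229.6 and 982 (log2 fold changes 0.17 and -0.13). Ift122 varied by about the same amount in both groups, with 854, 1183 and 575 against 943, 1177 and 637 (log2 fold change -0.09).

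The motors of transport showed small differences. Kif3a, a motor subunit of kinesin-II whose loss from epithelia removes cilia, had 1868, 1620.2 and 1589.6 in Klf5 LKO, against 1464, 1770.1 and 1724 in control, with an interval of -0.26 to 0.34 around a log2 fold change of 0.04. Dync2h1, the heavy chain of the retrograde dynein, had 1496, 1248 and 1401 against 1122, 1298 and 1032 (log2 fold change 0.27, limma adjusted p = 0.566). Control 2 was the only control library inside the Klf5 LKO range of Dync2h1.

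The BBSome is an adaptor that carries membrane proteins out of the cilium, and Arl6 is the GTPase that recruits it. None of these 7 genes was called by limma or had an unadjusted p under 0.05, and DESeq2, edgeR and limma-voom called none. Their summed level was 3292, 3139.8 and 3113 in Klf5 LKO, against 3065, 3091 and 2944 in control. Bbs4, a subunit tied to the centriolar satellites, had 893, 678 and 747 against 575, 642 and 606, without overlap (log2 fold change 0.34, interval -0.03 to 0.71, limma adjusted p = 0.507). Bbs1, the subunit that binds Arl6, had 242, 256 and 189.5 against 200.5, 316 and 311, and Bbs7 291, 241 and 324 against 341, 249.7 and 431, with overlapping groups and log2 fold changes of -0.25 and -0.23. The log2 fold changes of Bbs2, Bbs5, Bbs9 and Arl6 lay between -0.09 and 0.33, and Bbs2 had both its lowest and its highest value in Klf5 LKO, with 246, 586 and 422 against 456, 424 and 366. Arl13b, the membrane GTPase that loads Arl3 and is widely used to stain cilia, had 569, 622 and 597 in Klf5 LKO, against 510.4, 510.5 and 633 in control (log2 fold change 0.12, interval -0.26 to 0.49).

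The 8 transition zone genes had a median log2 fold change of -0.01, with 4 positive and 4 negative values, and none was called by limma, DESeq2, edgeR or limma-voom or reached an unadjusted p under 0.05 with limma. Cep290, the protein that links microtubules to membrane at the base of the cilium, had 329, 426 and 388 in Klf5 LKO, against 349, 503 and 378 in control. Tmem67, the membrane protein meckelin, mutated in Meckel syndrome and in Joubert syndrome with liver fibrosis, had 521, 533 and 427 against 463, 525 and 427. The groups of both overlapped (log2 fold changes -0.09 and 0.06, intervals -0.56 to 0.37 and -0.34 to 0.47). Mks1, B9d1, B9d2, Cc2d2a and Rpgrip1l had log2 fold changes between -0.12 and 0.19.

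Nphp4, a nephronophthisis gene, stood apart from the other members in its spread and its level. Its normalised count was 242, 69.3 and 7.45 in Klf5 LKO, where library 3 held 7 reads, and 52.4, 42.7 and 74.2 in control. The coefficient of variation was 114% in Klf5 LKO and 28.6% in control, and the log2 fold change went from -1.20 without Klf5 LKO 1 to 1.22 without Klf5 LKO 3. No direction can be read for it. In the inversin compartment, the segment above the transition zone, Invs had 214, 73.0 and 128 in Klf5 LKO, against 139, 138 and 99.6 in control, and its partner Anks6 had 491, 381 and 229 against 282, 245 and 321. Neither passed (limma adjusted p = 0.989 and 0.748), and the Klf5 LKO values of both enclosed those of control.

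Levels were compared between genes as normalised counts per kilobase of exon, using the union of GENCODE M21 exons. On this scale Bicc1 was the highest member in control, at 1244 per kilobase, above 94.8% of the tested genes with a known length. Dcdc2a came next at 711 (above 90.1%), followed by Ift57 at 631, Ift43 at 477, Kif3a at 461 and Ift74 at 434. Pkd2 and Pkhd1 had 356 and 317. The lowest members were Ift80 at 17.3, Invs at 11.0 and Nphp4 at 9.33 per kilobase, the last above 9.73% of tested genes. Subunits of 1 complex therefore differed widely in level per kilobase: within IFT-B they ran from 17.3 for Ift80 to 631 for Ift57. Union exons include bases that these cells may not use, so values per kilobase can be too low.

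**Figure D3:**
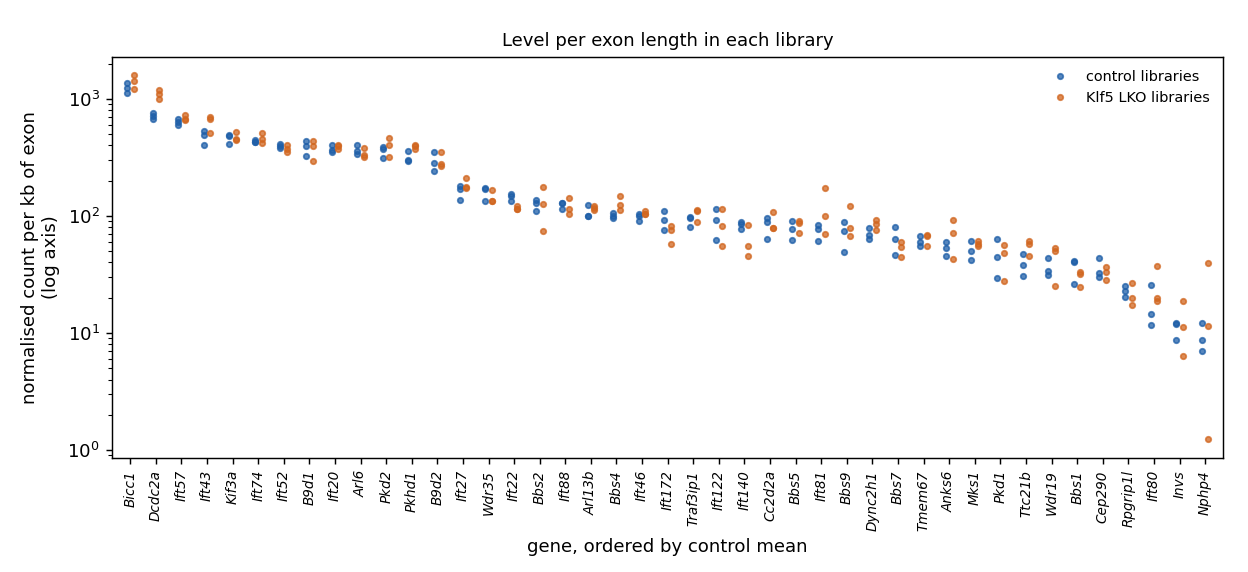
Normalised count per kilobase of exon (y axis, log scale) in each of the 3 control and 3 Klf5 LKO libraries (points) for the 43 genes, ordered by their control mean. The members span from 1244 per kilobase for Bicc1 to 9.33 for Nphp4, and the colours separate clearly for Dcdc2a.

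The X-box, the inverted repeat bound by the RFX factors that drive ciliary genes, was matched in the promoter windows of 3 members, Ift57, Bbs1 and B9d2. Their control levels were 631, 35.9 and 291 per kilobase, and a link between match and level was not tested. The matches are shown on the gene's strand, in capitals throughout because each is the motif itself. The coordinates on GRCm38.p6 are chr16:49699207-49699220 and chr16:49699234-49699246 for Ift57 (plus strand), chr19:4906613-4906626 for Bbs1 (minus strand) and chr7:25680796-25680809 for B9d2 (plus strand).
Ift57, first match: GTTGCCGTGGTGAC
Ift57, second match: GTTGCCTGGTAAC
Bbs1: GTTGCCAAGGCGAC
B9d2: GTTGCCCCAGCAAC
The X-box was found in 3 of 41 windows of the members (7.32%) and in 1.53% of all windows, searched on both strands. Log2 fold changes of the 3 genes were 0.12 for Ift57, -0.25 for Bbs1 and 0.04 for B9d2, and none was called by limma, DESeq2, edgeR or limma-voom.

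The members also varied between libraries of 1 group. Relative to its own mean over 6 libraries on the log2 scale, the median member stood at 0.17, 0.05 and -0.05 in Klf5 LKO 1 to 3 and at -0.02, 0.02 and -0.10 in control 1 to 3, while the median of all tested genes was 0.01 in each. Klf5 LKO 1 held the highest of the 6 values for 16 of 43 members, Klf5 LKO 3 the lowest for 13 and control 3 the lowest for 12. Summed over all 43 members, the level was 54391, 56015 and 50633 in Klf5 LKO, against 44706, 49460.5 and 46024 in control, or from 0.277% to 0.304% and from 0.242% to 0.267% of the normalised counts. Without Dcdc2a the sums were 46162, 46222 and 41585 against 39165, 43202 and 40158, which overlapped. Dcdc2a, Bicc1, Pkhd1 and Pkd2 made up between 47.6% and 56.2% of the members' sum in each library.

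**Figure D4:**
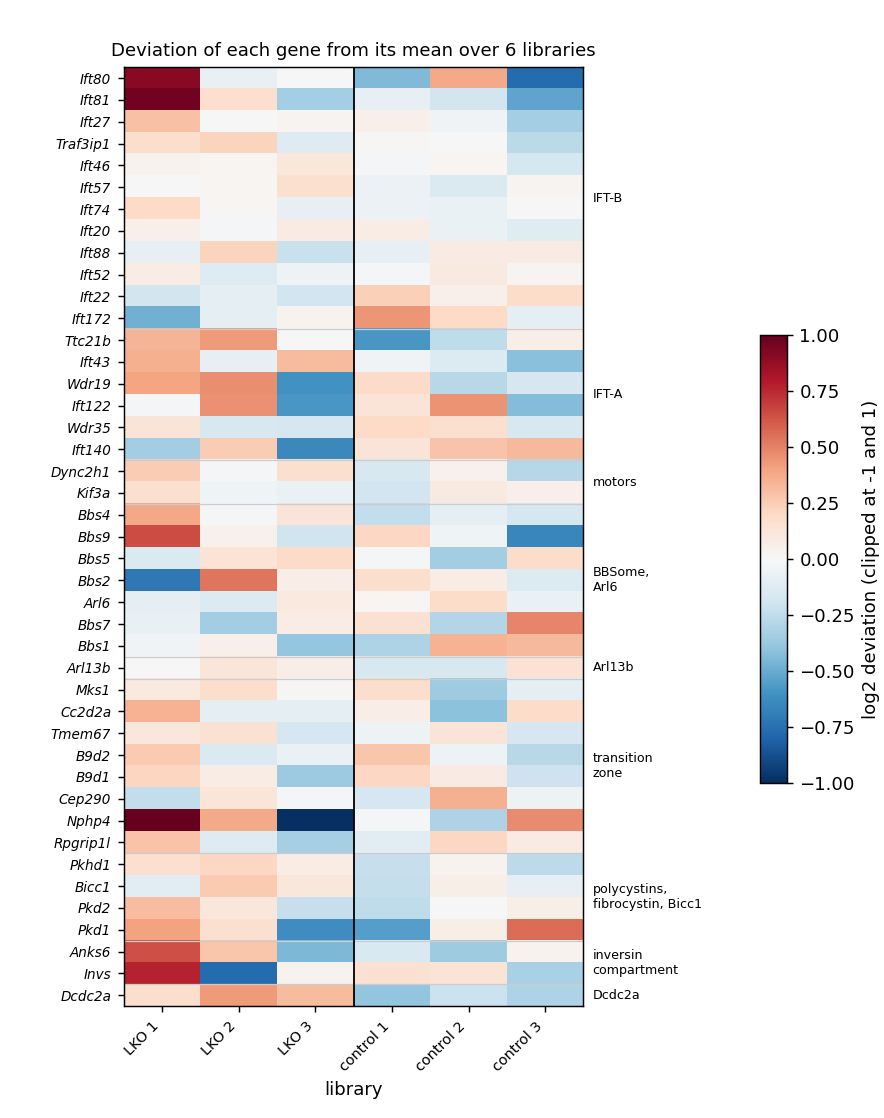
Log2 deviation of each gene from its own mean over the 6 libraries (colour, clipped at -1 and 1), with genes in rows by role and libraries in columns. Dcdc2a is above its mean in all 3 Klf5 LKO libraries and below it in all 3 controls, while Klf5 LKO 1 and Klf5 LKO 3 differ from each other in genes such as Nphp4, Ift81 and Pkd1.

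The rest of the ciliary pathway was examined with 137 further genes found in the table, of which 121 were tested. Limma called none, and edgeR and limma-voom none. DESeq2 called 3 of 121 (2.48%), the share it called of all genes (2.48%), and 11 of 121 (9.09%) had an unadjusted limma p under 0.05, beside 10.9%. The median log2 fold change was 0.02. The 3 called by DESeq2 were Rfx5, Dynll1 and Plk1. Rfx5, an RFX factor best known for activating MHC class II genes, had 1107, 914 and 825 in Klf5 LKO, against 740.3, 529 and 470.4 in control (log2 fold change 0.73, limma adjusted p = 0.162, DESeq2 adjusted p = 0.0485). Dynll1, a light chain of dyneins and of many other complexes, had 1224, 1939.9 and 1626 against 2648, 2077 and 2721 (-0.65, 0.156 and 0.0254). Plk1, a mitotic kinase that also takes part in cilium disassembly, had 204, 209 and 154 against 346, 529 and 416 (-1.17, 0.0610 and 0.00203) and is counted in the G2/M list too.

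By list, the further IFT and motor genes (18 tested), BBSome and trafficking genes (14), transition zone genes (18), basal body genes (16) and cystic disease genes (17) had median log2 fold changes of 0.02, 0.07, 0.02, -0.05 and 0.02. The lists for hedgehog signalling (9 tested), sensory channels and cyclases (4), RFX factors with Foxj1 (6) and tubulin modification (9) had medians of -0.02, -0.04, 0.14 and -0.01. The 10 cilium disassembly genes had the lowest median of these lists, -0.18. Of them 4 (40%) had an unadjusted limma p under 0.05, beside 10.9% of all genes tested. These were Plk1, Nek2 (-0.97, limma adjusted p = 0.259) and Nedd9 (-0.38, 0.297) on the low side and Trip6 (0.32, 0.370) on the high side. The groups did not overlap in any of the 4 (40% of the list), beside 15.6% of all genes. Plk1 is also in the G2/M list, where 11 of 12 genes were lower without overlap, beside 7.88% of all genes. The part of dividing cells in the values of this list was not tested. The cystic liver disease genes Prkcsh and Sec63, which act in folding and import in the endoplasmic reticulum, had limma log2 fold changes of 0.11 and 0.11 (adjusted p = 0.835 and 0.814). The hedgehog genes, whose signal runs through the cilium in many cells, had log2 fold changes from -2.40 to 1.00. The groups did not overlap in 1 of the 9 tested on the high side and 1 on the low side (22.2%), beside 15.6% of all genes. The higher 1 was Smo, with 1528, 1545 and 1617 in Klf5 LKO, against 1339.8, 1437 and 1377 in control (log2 fold change 0.18, limma adjusted p = 0.669). The target and effector Gli1 had 0 reads in 5 libraries and 1 read in control 3. At the depth of these libraries, 3 reads, the limit that a count of 0 allows, are worth a normalised count of 2.24 to 4.74.

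Genes of motile cilia were listed apart, since the duct cilium is not motile. Foxj1, the master factor of motile cilia, had 1208, 1602 and 1133 in Klf5 LKO, against 1164, 1211 and 1354 in control (log2 fold change 0.07, limma adjusted p = 0.919). The 16 axonemal genes found together summed to 1019.6, 1363 and 1374 against 1208, 1122 and 1031, and 6 of them had a mean under 10. The outer arm dynein Dnah5 had 29.6, 144 and 115 against 51.5, 72.7 and 33.5, and the radial spoke gene Rsph9 was the most abundant with 438, 648 and 654 against 535, 548 and 435. None of the 10 that were tested was called by limma, DESeq2, edgeR or limma-voom, and none had an unadjusted limma p under 0.05. The groups did not overlap in 2 of the 10 (20%), on the low side, beside 7.88% of all genes lower without overlap. The median standard error of the 10 was 0.54, beside 0.21 for all genes tested.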

How the data were processed

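The 6 RNA-seq samples were 3 of each genotype. Per the labels' protocols, libraries came from 4 ng of total RNA by a low-input method with PCR before and after tagmentation and no mention of molecular identifiers. The limit given for a count of 0 covers counting error only, while confidence intervals are limma's, from the spread between libraries. The submitters' processing notes name the mm10 build and the tools Bowtie2, TopHat and DESeq2. Which counter, annotation and strand setting were used is not given in the sources used here.

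The authors deposited a signal per gene and library, a read count divided by a size factor, and whole reads were recovered for 100% of values within a tolerance of 0.001. The authors' deposited table of the comparison gives log2 fold changes, a test statistic (a score) and p-values with adjusted p-values. Because the values are normalised, limma 3.58.1 (trend) in R 4.3.3 was fitted to log2(value + 1), keeping 13490 genes whose mean reached 10, two-sided, with Benjamini-Hochberg adjustment over all genes and a threshold of 0.05. A fold change on this scale understates that of low genes. Recovered reads were tested with DESeq2 1.42.0, edgeR 4.0.16 and limma-voom as alternatives, and scaling, filter, pseudocount, left-out libraries and terms for replicate number, leukocyte and G2/M transcripts were varied. The limma step was tested on simulated data.

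The members and all lists were chosen with earlier results of these data known. Values in every library are given for members called by limma or a count test, the 6 largest and 6 smallest log2 fold changes, a fixed set, and the extremes of level per kilobase. Exon lengths from GENCODE M21 covered 96.0% of tested genes, and promoter sequences are from RefSeq on GRCm38.p6. Genes chosen outside this rule to describe a list, after their values were seen, are Ift46, Ift122, Bbs2, Prkcsh, Sec63, Smo, Gli1, Foxj1, Nek2, Nedd9, Trip6, Sctr, Tspan8, Dnah5 and Rsph9. Of the listed genes, 5 had no match by symbol.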

Additional observations from a re-analysis of the deposited data

How the results depend on the processing

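Dcdc2a kept a positive log2 fold change in all 18 alternatives. The count of 1 called member became 0 with edgeR, with no filter, with the leukocyte term and with the G2/M term, and was 0 to 1 when 1 library was left out. Over all genes the 88 calls became 335 with DESeq2, 51 with the leukocyte term, 0 with the G2/M term and 14 to 105 when 1 library was left out. The 0 calls among the further pathway genes became 3 with DESeq2 and 1 (Plk1) at a mean of at least 50. With a replicate block 110 genes and 1 member were called. Deviations of same-numbered libraries correlated at 0.18, -0.01 and 0.11, and not every library correlated best with its own number. With 3 libraries in each group these correlations cannot decide whether the numbers pair the samples. The labels state no pairing, so the main fit has no block.

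No uncalled member passed under any alternative, but some log2 fold changes changed sign, and the cause was not tested. With the G2/M term 18 of 43 members did, 11 of them outside the naming rule. The other 7 were Anks6 (-0.23, SE 0.81), Arl13b (-0.091, SE 0.51), Bbs1 (0.30, SE 0.76), Cep290 (0.85, SE 0.56), Ift140 (0.086, SE 0.64), Ift88 (0.32, SE 0.53) and Invs (-0.59, SE 1.16). The G2/M level did not overlap between the groups, so this fit can hardly separate the term from genotype. Nphp4 changed sign with DESeq2 (0.91), edgeR (0.91), limma-voom (0.063) and a pseudocount of 5 (0.025), and Pkd1 with limma-voom (0.00082). With 1 library left out, 15 of 43 spanned 0, 7 of them outside the naming rule, and for the other 8 the values ranged from -0.20 to 0.062 for Cep290, -0.18 to 0.044 for Ift88, -0.36 to 0.41 for Invs, -0.049 to 0.088 for Kif3a, -1.20 to 1.22 for Nphp4, -0.33 to 0.25 for Pkd1, -0.0057 to 0.16 for Tmem67 and -0.020 to 0.51 for Wdr19. Members without overlap then numbered 8 to 13, where 23.0% to 29.7% of all genes had none. Depth limits the lowest members most, and Nphp4 held 7 reads in its lowest library.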
